A study of Mus musculus with 23 samples.

Results

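The conjugating enzymes described here are the glutathione S-transferases (Gst), the UDP-glucuronosyltransferases (Ugt) and the sulfotransferases (Sult) of mouse colon during colitis caused by dextran sodium sulfate (DSS). Members were all probe sets of the Affymetrix whole-genome mouse array whose platform gene symbol begins with Gsta, Gstk, Gstm, Gsto, Gstp, Gstt, Mgst, Ugt1, Ugt2 or Sult. There were 59 such probe sets among 45037 that are not array controls, and they stand for 45 genes or gene clusters, of 18828 genes or clusters with a platform symbol. A filter on low signals (at least 5 of 23 arrays above the median of their own array) kept 43 of the 59, for 32 genes or clusters, among 24627 probe sets kept in all. Of the 43, 36 lay above that median on all 23 arrays. Colon RNA came from C57BL/6J mice of 12 to 14 weeks, with 5 untreated mice at day 0 and 6 mice each after 2, 4 and 6 days of 3% DSS in the drinking water. Each array is named for its own mouse, so the days are separate cohorts and no animal was followed over time. The labels do not say which piece of colon was taken or which layers it held, and p-values measure the spread between mice of 1 day.

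DSS is a sulfated polysaccharide that damages the colon epithelium, and the crypts and the inflamed tissue around them then change over several days. Conjugation is the second phase of detoxification: a Gst joins glutathione to a reactive compound, a Ugt joins glucuronic acid taken from UDP-glucuronic acid, and a Sult joins sulfate taken from the donor PAPS. The products are more soluble in water and are carried out of the cell by efflux pumps. In the intestine these enzymes are made mostly by epithelial cells, where they meet compounds from food and from bacteria, and several of them are known targets of the oxidative stress factor Nrf2, of the aryl hydrocarbon receptor, or of the liver and gut factor HNF1.

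At day 6 most mu-class and all kept theta-class glutathione transferases fell, together with Ugt2b34, Ugt2b35 and 4 sulfotransferases, while Gstp1, Gsto1 and Gsta4 did not pass the test, nor did the Ugt1a cluster with all arrays included. Of the 43 kept probe sets, 23 (53.5%) fell and 1 rose at day 6 against day 0 in limma's moderated test, at an adjusted p of 0.05 or less with Benjamini-Hochberg adjustment over all 24627 probe sets. The background was 29.5% of all probe sets called in either direction, 14.2% higher and 15.3% lower. The median log2 change of the members was -0.40, against -0.01 over all probe sets, where all log2 changes here are differences of log2(signal + 16), the later day minus the earlier one. In 18 members every array of day 6 lay below every array of day 0, where 7.63% of all probe sets did so. The calls came from 17 genes that fell and 1 that rose.

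The earlier days held few calls. At day 2 against day 0 no member passed in limma's test, where 0.122% of all probe sets did, and 5 members had an unadjusted p under 0.05. The members' median log2 change was 0.03 there, against -0.00 over all probe sets. At day 4 against day 0, 4 members fell (Gsta3, Gstm3, Mgst3 and Ugt2b34, 1 probe set each) and 1 rose (Gstt1), where 18.7% of all probe sets were called (9.06% lower and 9.68% higher). The members' median there was -0.10, against 0.02 over all. Leaving out mouse 5 of day 0 took these 5 calls to 0, and over all single arrays left out the count ran from 0 to 7. Between neighbouring times, 10 members fell and 2 rose at day 4 against day 2, where 13.1% of all probe sets were called (6.15% lower and 6.90% higher). At day 6 against day 4, 17 members fell and 1 rose, where 18.2% were called (10.2% lower and 8.01% higher), and all 17 were among the 23 that were lower at day 6 than at day 0. The comparisons share arrays: those against day 0 share its 5 mice, and each day of DSS enters more than 1 comparison. Lower signal in whole tissue can come from fewer cells that make an enzyme or from less RNA in each, and these cannot be told apart here.

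**Figure D1:**
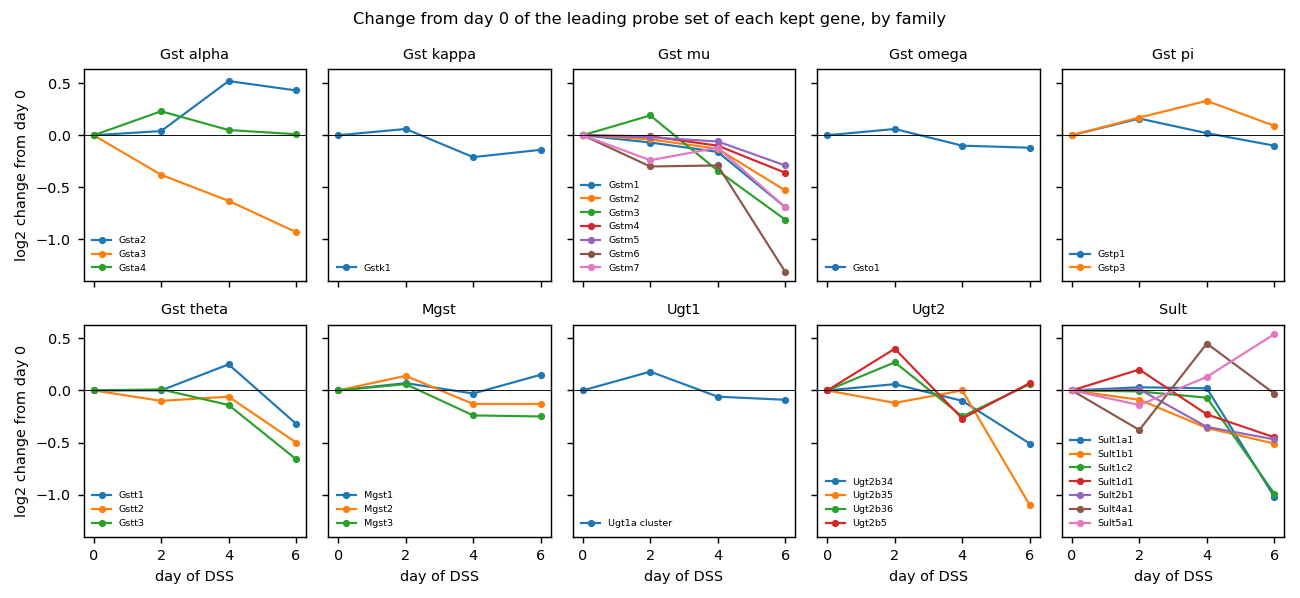
Log2 change from day 0 (vertical axis) at days 0, 2, 4 and 6 of DSS (horizontal axis) for the leading probe set of each kept gene, 1 panel per family, each line joining the 4 day means. The mu, theta and Ugt2 panels hold lines that lie lowest at day 6, for example Gstm6 to -1.31 and Ugt2b35 to -1.10, while the kappa, omega, pi and Ugt1 panels stay within 0.33 of 0.

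A property of the arrays moved with the days. Spiked-in hybridization controls are not made by the tissue, but their signals were scaled with the rest of each array. Their level can therefore also move with the tissue RNA on the array. On the log2 scale they averaged 11.42 ± 0.06 at day 0 (SD, n = 5) and 11.35 ± 0.11 at day 2. They averaged 11.02 ± 0.12 at day 4 and 10.90 ± 0.19 at day 6 (n = 6 for each day of DSS). The differences from day 0 were -0.40 at day 4 and -0.52 at day 6, each with an exact permutation p of 0.00433 (two-sided, adjusted p = 0.00649 over 9 tests), the smallest that 6 against 5 arrays allow. The ratio of 3' to 5' signal is a measure of RNA length. For Actb it was higher than at day 0 by 0.18 at day 4 and 0.09 at day 6 on the log2 scale. For Gapdh it was higher by 0.18 at day 4 and 0.15 at day 6. Each of these differences also had an exact permutation p of 0.00433. So day 4 or 6 against day 0, and day 4 against day 2, cannot be told apart from a difference in hybridization. With the control level as a covariate, 1 member stayed called at day 6 against day 0 (a probe set of Ugt2b34, -0.55, adjusted p = 0.0455 in limma), with 6.59% of all probe sets called. Day 6 against day 4, with controls at 10.90 against 11.02, kept 16 of its 18 calls under the same covariate. Markers of neighbouring tissue also varied between arrays, and 4 arrays with very high pancreas or very low skeletal muscle signals, called here the arrays that stand apart, were left out in an alternative fit. Mouse 6 of day 2 and mouse 1 of day 6 had summed pancreas signals of 275615 and 77880, against at most 11491 at day 0. Mouse 8 of day 2 and mouse 8 of day 4 had summed skeletal muscle signals of 1593 and 1526, against 10926 to 23522 at day 0. Skeletal muscle sums lay outside the day 0 range on many arrays of DSS: their medians were 16920 at day 0, 26021 at day 2, 47332 at day 4 and 31041 at day 6, with highest values of 70128, 73603 and 94635 at days 2, 4 and 6 and a lowest of 4134 at day 6. The part of these tissues in the members' results was not tested. Without the 4 arrays that stand apart 24 members fell and none rose at day 6 against day 0.

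RefSeq promoters (GRCm38.p6) were at hand for 48 of 53 member symbols, 59 promoters in all, and the 250 bases before the start were searched on both strands for 3 short motifs. The letters TGACNNNGC stand for the core of the antioxidant response element that Nrf2 binds, GCGTG for the core of the element of the aryl hydrocarbon receptor, and GTTAAT for 1 arm of an HNF1 site. The antioxidant core occurred in 4 member promoters (6.78%), those of Gsta3, Gstm5, Gstm7 and Mgst1, against 10.2% of all 32851 promoters searched. The GCGTG core occurred in 18.6% of member promoters against 28.2% of all, and the HNF1 arm in 13.6% against 6.43%. Among the 7 Ugt1a first exons with a promoter at hand, 4 held the HNF1 arm. These matches are letters in a window and not shown to be bound sites, and no match says only that the letters are not in that window. The following 250-base stretches are shown because Gsta3 and Gstm5 fell and Mgst1 rose at day 6 and each holds an antioxidant core, and because Sult1a1, the sulfotransferase with the largest fall, holds an HNF1 arm. Each is written 5′ to 3′ on the gene's strand and ends at the base before the start, with the motifs in capitals. They lie at chr1:21240335-21240584 (plus strand) for Gsta3, chr3:107895604-107895853 (plus) for Gstm5, chr6:138140277-138140526 (plus) for Mgst1 and chr7:126676419-126676668 (minus) for Sult1a1.
Gsta3: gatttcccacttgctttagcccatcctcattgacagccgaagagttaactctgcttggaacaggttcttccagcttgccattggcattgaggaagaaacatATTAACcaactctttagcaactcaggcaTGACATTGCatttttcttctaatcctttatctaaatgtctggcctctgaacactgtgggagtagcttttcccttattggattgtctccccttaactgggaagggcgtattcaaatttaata
Gstm5: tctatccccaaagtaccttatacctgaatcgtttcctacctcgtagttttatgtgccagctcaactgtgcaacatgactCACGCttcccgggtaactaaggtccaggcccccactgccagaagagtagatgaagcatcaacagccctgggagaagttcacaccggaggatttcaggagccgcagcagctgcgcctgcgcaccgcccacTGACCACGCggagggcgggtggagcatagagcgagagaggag
Mgst1: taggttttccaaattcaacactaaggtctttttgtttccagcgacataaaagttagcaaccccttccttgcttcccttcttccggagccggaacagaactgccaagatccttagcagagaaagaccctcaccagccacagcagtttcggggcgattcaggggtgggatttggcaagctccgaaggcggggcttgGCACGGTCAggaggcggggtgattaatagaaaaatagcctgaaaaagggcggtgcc
Sult1a1: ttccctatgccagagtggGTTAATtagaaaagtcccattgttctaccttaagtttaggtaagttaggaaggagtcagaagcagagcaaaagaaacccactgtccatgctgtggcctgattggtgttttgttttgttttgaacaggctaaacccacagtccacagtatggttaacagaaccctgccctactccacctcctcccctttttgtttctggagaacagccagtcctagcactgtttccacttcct
In Gsta3 the capitals mark an HNF1 arm (149 to 144 bases before the start, on the opposite strand) and the antioxidant core (121 to 113 before it). In Gstm5 they mark a GCGTG core on the opposite strand at 171 to 167 and then the antioxidant core at 42 to 34, whose last 5 letters are also a GCGTG core on the opposite strand. In Mgst1 they mark an antioxidant core on the opposite strand at 56 to 48, and in Sult1a1 the HNF1 arm at 232 to 227. The match of Gstm7 lies between its 2 annotated starts and is not printed.

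The mu class held the most kept probe sets and the most calls at day 6 against day 0. Mu-class enzymes are dimers of the cytosol that conjugate epoxides, quinones and products of lipid peroxidation. Of 11 kept probe sets 9 fell at day 6 against day 0, all 9 with no overlap between the days, at a median log2 change of -0.69. By leading probe set, the kept one with the highest mean signal, 6 of the 7 mu genes fell, and Gstm4 did not pass (log2 difference -0.36, 95% interval -0.67 to -0.05, adjusted p = 0.0775 in limma). RefSeq places the 7 genes side by side on chromosome 3, with promoter windows from 107895604 (Gstm5) to 108045109 (Gstm4). Close relatives share sequence, and the suffixes _x_at and _s_at mark probe sets whose probes can match transcripts of more than 1 gene, so signals of mu genes are not fully separate.

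Gstm6 changed the most of all members. Its signal was 379.8, 482, 357, 428 and 492 at day 0. It ranged from 279 to 381 with a median of 348 at day 2, and from 247 to 409 with a median of 354 at day 4. At day 6 it ranged from 71.1 to 239 with a median of 175. Every day 6 array lay below every array of the other 3 days. The log2 change was -1.31 ± 0.19 (SE, adjusted p = 1.38e-05 in limma) at day 6 against day 0 and -1.02 ± 0.18 (adjusted p = 0.000307) at day 6 against day 4.

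Gstm1, a widely made member of the class, had 4 kept probe sets. In the leading one the signals were 5269, 6776, 5926, 6000 and 6065 at day 0. They had a median of 5477 at day 2 (5256 to 6421) and of 5614 at day 4 (4265 to 7003). At day 6 they lay between 3465 and 3880 with a median of 3712. The day 6 mice were close to each other, at 3710 ± 145 (SD, n = 6), and lay below all 17 arrays of the other days. The log2 change was -0.69 ± 0.10 against day 0 (adjusted p = 1.4e-05) and -0.53 ± 0.09 against day 4 (adjusted p = 0.000326). Of the other 3 probe sets 2 fell by 0.71 and 0.73 at day 6 against day 0.

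Gstm3 was the one mu gene called before day 6. Its leading probe set averaged 2695 ± 386 at day 0 (SD, n = 5), 3078 ± 522 at day 2, 2141 ± 407 at day 4 and 1547 ± 349 at day 6 (n = 6 each). Day 6 arrays ran from 1190 to 2054, against 2249 to 3180 at day 0, with no overlap. Gstm3 fell by 0.53 at day 4 against day 2 on the log2 scale (adjusted p = 0.0176), by 0.47 at day 6 against day 4 (adjusted p = 0.0211, lost in 5 of 36 other settings) and by 0.81 at day 6 against day 0 (adjusted p = 0.000204). Its other probe set fell by 1.16 at day 6 and by 0.60 at day 4 against day 0 (adjusted p = 4.31e-05 and 0.0253 in limma).

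Gstm2, Gstm5 and Gstm7 were called at day 6 alone among the contrasts with day 0. Gstm7 had signals of 174 to 253 (median 211) at day 6, against 309.6 to 404 (median 343) at day 0, and Gstm2 had 1613 to 2238 (median 1910) against 2414 to 2979 (median 2678). Gstm5 had 2024 to 2373 (median 2087) at day 6, against 2414 to 2720 (median 2588) at day 0. None of the 3 overlapped with day 0 at day 6. Gstm7 did not overlap with day 0 at day 2 either, at 269 to 307, but did not pass there (-0.24, adjusted p = 0.448 in limma). The log2 changes at day 6 were -0.69 ± 0.13 for Gstm7, -0.53 ± 0.09 for Gstm2 and -0.29 ± 0.06 for Gstm5 (SE; adjusted p = 0.000262, 9.71e-05 and 0.00151 in limma). At day 6 against day 4 all 3 fell as well, by 0.57, 0.40 and 0.22, and the call of Gstm5 was lost without the 4 arrays that stand apart (adjusted p = 0.0609 in limma).

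The theta class, whose enzymes act on small halogenated compounds, fell in all 3 of its kept genes at day 6. The day 6 signals of Gstt3 ran from 826 to 1339 with a median of 1012, against 1375, 1675, 1779, 1610 and 1639 at day 0, and the days did not overlap. The log2 change of Gstt3 was -0.66 ± 0.10 (adjusted p = 2.45e-05 in limma). Gstt2 averaged 1184 ± 231 at day 6 against 1659 ± 196 at day 0 and fell by 0.50 on the log2 scale (adjusted p = 0.00127), with 1 day 6 mouse, at 1568, inside the day 0 range.

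Gstt1 rose before it fell. Its signal was 1263, 1518, 1374, 1446 and 1191 at day 0, and 1212 to 1440 with a median of 1350 at day 2. At day 4 it was 1462 to 1817 with a median of 1572, and at day 6 it was 961 to 1209 with a median of 1110. The day 4 arrays all lay above the day 2 and day 6 arrays. Gstt1 rose by 0.25 on the log2 scale at day 4 against day 0 (adjusted p = 0.0295) and against day 2 (adjusted p = 0.0285), and fell by 0.57 at day 6 against day 4 (adjusted p = 1.68e-05) and by 0.32 at day 6 against day 0 (adjusted p = 0.00309, limma). The rise was lost in 6 of 36 other settings against day 0 and in 7 against day 2, and the fall against day 4 in none of 36. RefSeq places Gstt3, Gstt1 and Gstt4 near each other on chromosome 10.

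The alpha class was split between its genes. Gsta3, which in mouse detoxifies the aflatoxin epoxide, had signals of 498, 612, 472, 445 and 567 at day 0. Its median was 378 at day 2 (266 to 667), 336 at day 4 (205 to 465) and 268 at day 6 (200.3 to 327). Day 6 arrays all lay below day 0, while days 2 and 4 overlapped with it. The log2 change was -0.63 ± 0.21 at day 4 (adjusted p = 0.036) and -0.93 ± 0.21 at day 6 (adjusted p = 0.00146), both against day 0 in limma. The call at day 4 was lost in 10 of 36 other settings. The other probe set of Gsta3 did not pass at day 4 (-0.07, adjusted p = 0.828) and fell by 0.51 at day 6 (adjusted p = 0.0382). Its day 6 signals, 56.6 to 84.1, all lay below the medians of their arrays, which ran from 109 to 121. It therefore met the filter on low signals only through arrays of the other days. This weak probe set is counted among the 23 that fell and the 18 without overlap. Gsta4, which conjugates 4-hydroxynonenal from oxidized lipids, averaged 2173 ± 119.5 at day 6 against 2165 ± 266 at day 0, a log2 difference of 0.01 (95% interval -0.17 to 0.19). Gsta2 had signals of 65.1 to 149.9 at day 6 against 39.9 to 98.4 at day 0 and did not pass (adjusted p = 0.319).

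**Figure D2:**
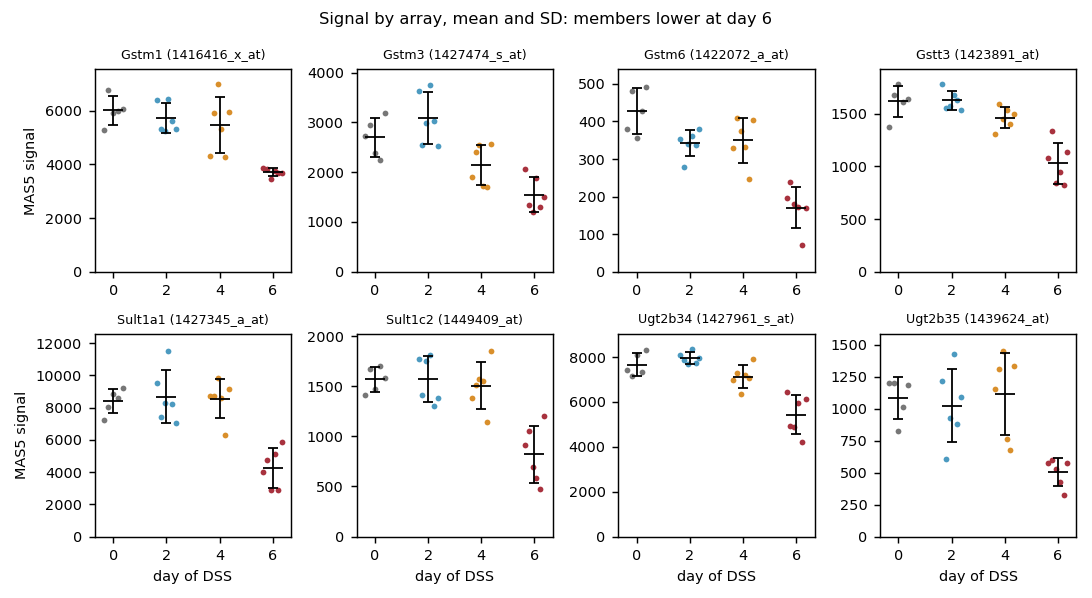
MAS5 signal (vertical axis, linear from 0) of 8 members that fell at day 6, by day of DSS (horizontal axis). Points are arrays, with bars for the mean and SD of 5 mice at day 0 and 6 at each later day. In Gstm6, Sult1a1 and Ugt2b35 the day 6 points lie below all points of the other days, and in Gstm3 the mean is 2141 at day 4 and 1547 at day 6.

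The pi, omega and kappa classes did not pass in any contrast with all arrays included. Without the 4 arrays that stand apart, Gstk1 was lower at day 4 against day 0 (-0.28, adjusted p = 0.0378 in limma) and against day 2 (-0.39, adjusted p = 0.0192), and Gsto1 at day 4 against day 2 (-0.22, adjusted p = 0.0373). Gstp1, the main transferase of many epithelia, averaged 13745 ± 862 at day 0, 15397 ± 701 at day 2, 13929 ± 618 at day 4 and 12882 ± 1477 at day 6 (SD). Its log2 difference at day 6 against day 0 was -0.10, with a 95% interval of -0.23 to 0.03. Gsto1, a thioltransferase that also reduces dehydroascorbate, averaged 11327 ± 960.3 at day 6 against 12252 ± 355 at day 0, with an interval of -0.25 to 0.02. Gstk1, the mitochondrial and peroxisomal class, averaged 2509 ± 368 at day 6 against 2747 ± 255 at day 0, with an interval of -0.36 to 0.08. These intervals leave out falls of the size measured for Gstm1. Gstp3 had signals of 166 to 228 at day 6 and 140.2 to 246 at day 0.

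The microsomal transferases, membrane proteins unrelated in sequence to the soluble classes, went different ways. Mgst1, which reduces lipid hydroperoxides, was the one member that rose at day 6, with signals of 11711 to 13370 (median 12625) against 10572 to 11851 (median 11561) at day 0. The ranges overlapped, and the log2 change was 0.15 ± 0.05 against day 0 (adjusted p = 0.0335) and 0.18 ± 0.05 against day 4 (adjusted p = 0.0143). The first of these calls was lost in 10 of 36 other settings, among them median centring (0.06, adjusted p = 0.551) and leaving out the 4 arrays that stand apart. The second was lost under median centring too (adjusted p = 0.271), and in no other setting. Mgst3, which can also make leukotriene C4, averaged 15584 ± 1123 at day 0, 16199 ± 1040 at day 2, 13238 ± 1678 at day 4 and 13122 ± 1547 at day 6. It fell by 0.30 at day 4 against day 2 (adjusted p = 0.0172), by 0.24 at day 4 against day 0 (adjusted p = 0.045) and by 0.25 at day 6 against day 0 (adjusted p = 0.0246), with overlapping days, and the calls against day 0 were lost in 17 of 36 other settings at day 4 and in 6 at day 6. Mgst2 fell at day 4 against day 2 by 0.27 (adjusted p = 0.0317), with 4963 to 6028 at day 4 against 5520 to 7052 at day 2. That call was lost in 11 of 36 other settings, and without the 4 arrays that stand apart Mgst2 was also lower at day 6 against day 0 (-0.21, adjusted p = 0.0167 in limma).

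**Figure D3:**
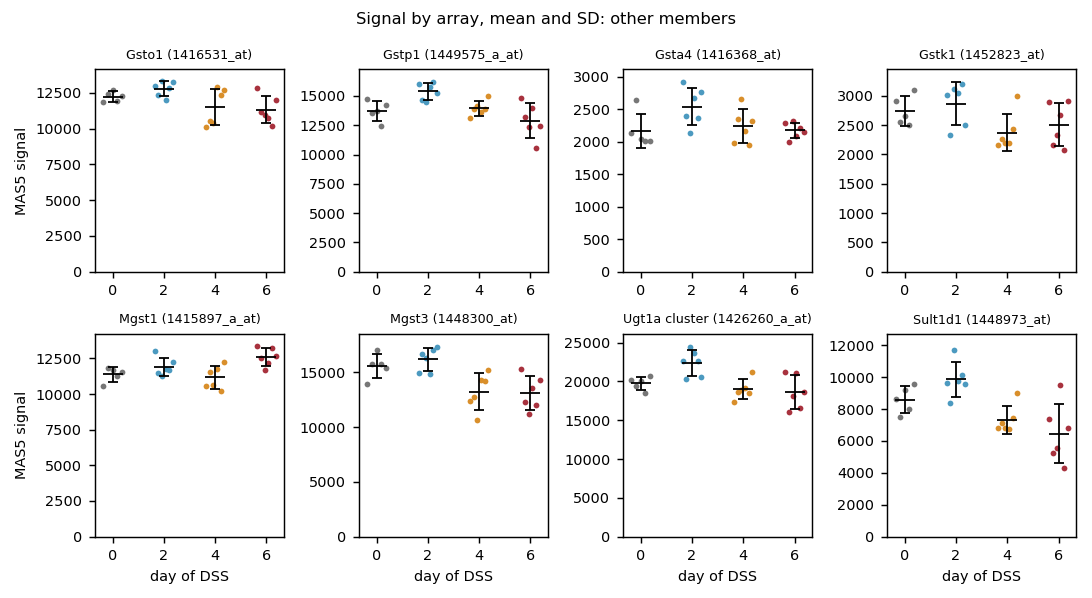
MAS5 signal (vertical axis, linear from 0) by day of DSS (horizontal axis) of 8 further members, with points for arrays and bars for the mean and SD of 5 mice at day 0 and 6 at each later day. Day 6 and day 0 overlap in all 8 panels, and the Ugt1a cluster is highest at day 2, where it averaged 22402 ± 1642.

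The Ugt1 locus gave 3 kept probe sets that each carry several Ugt1a symbols, so they measure the locus and no single enzyme. Ugt1a enzymes conjugate bilirubin, phenols and many drugs. In the leading probe set the signals were 20206, 19401, 20058, 18499 and 20682 at day 0, and had medians of 22647 at day 2 (20331 to 24439), 18753 at day 4 (17358 to 21263) and 18406 at day 6 (16066 to 21247). The ranges of the days overlapped, and the highest arrays were those of day 2. All 3 probe sets fell at day 4 against day 2, by 0.24, 0.36 and 0.47 on the log2 scale (adjusted p = 0.0192, 0.0127 and 0.00772 in limma), after differences of 0.18, 0.30 and 0.26 at day 2 against day 0 that did not pass (lowest adjusted p = 0.174). At day 6 against day 0 none of the 3 passed, with log2 differences of -0.09, -0.08 and -0.26. Without the 4 arrays that stand apart, the last of them was called lower there (-0.34, adjusted p = 0.00974 in limma).

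In the Ugt2 family 2 of 4 kept genes fell at day 6. Ugt2b34, from a subfamily that conjugates steroids and bile acids, had signals of 4201 to 6433 (median 5458) at day 6, against 7435, 7166, 8112, 7322 and 8297 at day 0. The days did not overlap, and the log2 change was -0.51 ± 0.08 (adjusted p = 5.83e-05) against day 0 and -0.40 ± 0.08 (adjusted p = 0.000851) against day 4. Its other probe set had the lowest adjusted p of all members at day 6 against day 0 (-0.76 ± 0.09, adjusted p = 1.78e-06 in limma), and had fallen by 0.30 at day 4 against day 0 and against day 2 (adjusted p = 0.0276 and 0.0272). Ugt2b35 had signals of 322 to 596 (median 552) at day 6, against 1199, 1198, 827, 1010 and 1187 at day 0, while days 2 and 4 ranged from 608 to 1426 and from 674 to 1451. Every day 6 array thus lay below every other array. Ugt2b35 fell by 1.10 ± 0.21 at day 6 against day 0 (adjusted p = 0.000313) and by 1.09 ± 0.20 against day 4 (adjusted p = 0.000441).

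The other 2 Ugt2b genes did not pass in any contrast with all arrays included, and Ugt2b5 was lower at day 4 against day 2 without the 4 arrays that stand apart (-0.88, adjusted p = 0.018 in limma). Ugt2b5 averaged 732 ± 218 at day 6 against 710.0 ± 265 at day 0, and Ugt2b36 averaged 124 ± 8.59 against 122 ± 36.6. Their intervals at day 6 were wide, -0.48 to 0.63 and -0.38 to 0.49 on the log2 scale. On chromosome 5 RefSeq places the Ugt2 genes next to Sult1b1, Sult1d1 and Sult1e1, with promoter windows from 86906938 (Ugt2b34) to 87591861 (Sult1e1). Of the 6 kept genes in that stretch, Ugt2b34, Ugt2b35, Sult1b1 and Sult1d1 fell at day 6, while Ugt2b5 and Ugt2b36, which start between them, did not pass.

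Among the sulfotransferases 5 of 8 kept probe sets, from 4 of 7 genes, fell at day 6 against day 0. Sult1a1, which sulfates simple phenols such as paracetamol, had signals of 7248, 8065, 8826, 8620 and 9188 at day 0. It had medians of 8259 at day 2 (7071 to 11521) and 8721 at day 4 (6316 to 9829), and at day 6 a median of 4394 (2865 to 5893). No change passed at days 2 and 4, and all day 6 arrays lay below all others. The log2 change of Sult1a1 was -1.02 ± 0.16 at day 6 against day 0 (adjusted p = 3.36e-05) and -1.04 ± 0.15 against day 4 (adjusted p = 4.28e-05 in limma). Its day 6 mean was 50.8% lower than at day 0 on the fitted scale.

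Sult1c2 moved likewise in time. Its signals were 910.3, 1058, 695, 587, 477 and 1208 at day 6, against 1412, 1669, 1478, 1704 and 1588 at day 0, with medians of 1581 at day 2 and 1538 at day 4. Day 6 did not overlap with day 0, although the highest day 6 mouse (1208) lay above the lowest day 4 mouse (1140). Sult1c2 fell by 0.99 ± 0.17 at day 6 against day 0 (adjusted p = 0.00013) and by 0.92 ± 0.16 against day 4 (adjusted p = 0.000388).

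Sult1b1 and Sult1d1 fell with more overlap. Sult1b1, which sulfates thyroid hormones and phenols, averaged 2915 ± 589.8 at day 6 against 4082 ± 270.2 at day 0, and fell by 0.51 ± 0.13 (adjusted p = 0.00605 in limma). Sult1d1, which acts on catecholamines and eicosanoids in mouse, averaged 8595 ± 848 at day 0, 9867 ± 1090 at day 2, 7329 ± 877 at day 4 and 6468 ± 1872 at day 6. The day 6 mice were spread widely, from 4282 to 9544, against 7518 to 9609 at day 0. Only mouse 7 of day 6, at 9544, lay inside the day 0 range, and the others of that day lay below it. Sult1d1 fell by 0.43 at day 4 against day 2 (adjusted p = 0.0318, lost in 9 of 36 other settings) and by 0.45 at day 6 against day 0 (adjusted p = 0.0145), and its other probe set fell by 0.72 at day 6 without overlap (adjusted p = 0.000657).

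The remaining 3 kept sulfotransferases gave 1 call. Sult4a1, a brain form with no known substrate, rose by 0.82 ± 0.24 at day 4 against day 2 (adjusted p = 0.0267), with 105 to 171 at day 4 against 43.7 to 146 at day 2. That call was lost when the 4 arrays that stand apart were left out. Sult4a1 signals lay near the medians of their arrays, which ran from 97.3 to 118 at days 2 and 4. Sult2b1, which sulfates cholesterol and is known from skin, averaged 388 ± 66.5 at day 6 against 547 ± 125 at day 0 (log2 difference -0.47, adjusted p = 0.0858), and Sult5a1 averaged 164 ± 49.1 against 109 ± 35 (0.54, adjusted p = 0.126).

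**Figure D4:**
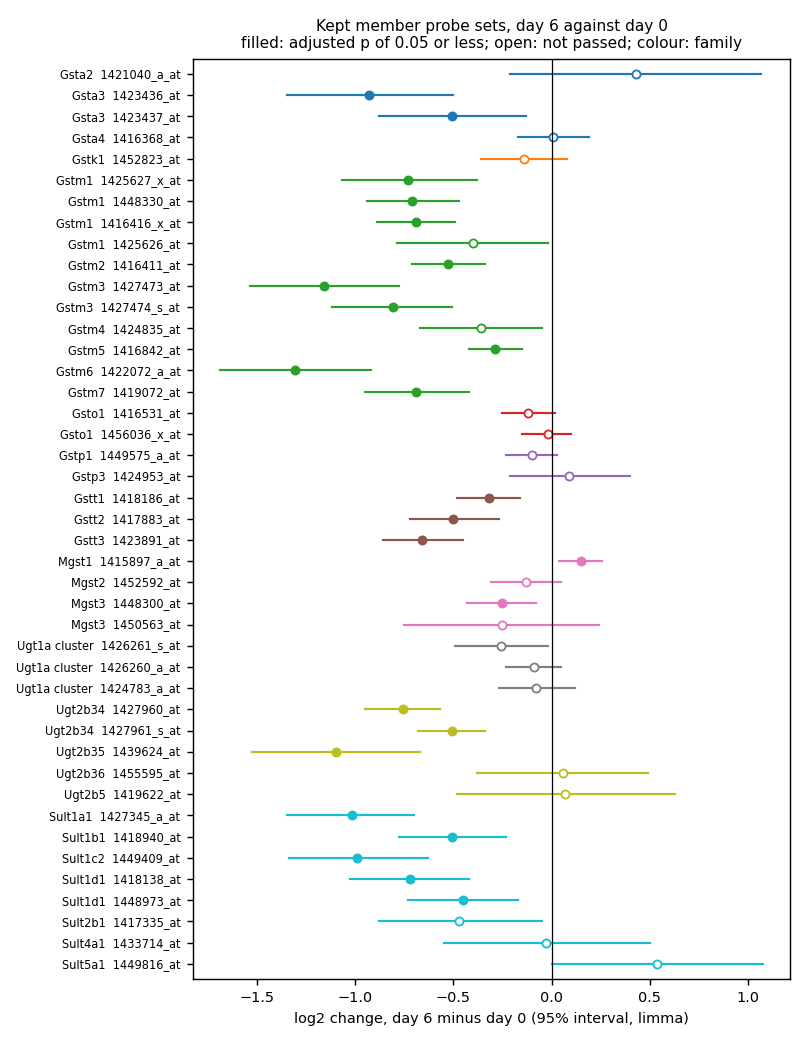
Log2 change at day 6 minus day 0 (horizontal axis) with its 95% interval from limma for the 43 kept members (rows), coloured by family. Filled points passed the test at an adjusted p of 0.05 or less: 23 lie left of 0 and 1 (Mgst1, 0.15) lies right of it, and the 9 filled mu points are the largest block.

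In 8 genes more than 1 probe set was kept, and no pair of probe sets of 1 gene was called in opposite directions. Gstm1 had 1 of 4 probe sets that did not pass at day 6 (-0.40, adjusted p = 0.11 in limma), and Mgst3 had 1 of 2 (-0.25, adjusted p = 0.456). In no contrast was a call made for 14 of the 43 kept probe sets, and 11 of the 32 kept genes had none. The 16 probe sets under the filter stand for Gsto2, Gstt4, Sult1c1, Sult1e1, Sult2a2, Sult2a8, Sult3a1, Sult6b1, Ugt2a1 with Ugt2a2, Ugt2a3, Ugt2b1, Ugt2b37 and Ugt2b38, and for further probe sets of Gstm7, Mgst1 and Sult4a1. All 16 lay above their array's median on at most 1 of 23 arrays. Sult1e1, the estrogen sulfotransferase, and the Sult2a enzymes, which sulfate bile acids in liver, are among them.

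The genes that feed the sulfotransferases and Ugts are given as means ± SD of 6 mice, or of 5 at day 0. Of 10 genes of sulfate and glucuronate donor supply 5 fell and none rose at day 6 against day 0, where 15.3% of all probe sets fell. The median log2 change was -0.26, against -0.01 over all probe sets. Slc26a2, a sulfate carrier of the cell surface, averaged 6101 ± 1085 at day 6 against 10576 ± 755 at day 0 and fell by 0.81 on the log2 scale (adjusted p = 6.02e-06). Papss1, which makes PAPS, averaged 2509 ± 403 against 4176 ± 241 and fell by 0.74 (adjusted p = 2.82e-07), and Slc35b2, which carries PAPS into the Golgi, fell by 0.33 (adjusted p = 0.0225, limma). Ugdh, which makes UDP-glucuronic acid, averaged 8419 ± 1545 at day 6 against 10002 ± 682 at day 0 and fell by 0.27 (adjusted p = 0.0405). Of the 10, 1 fell at day 4 against day 0, Slc35b2 by 0.33 (adjusted p = 0.033), where 9.06% of all probe sets fell.

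Of 13 kept genes of glutathione supply, recycling, use and breakdown, 7 rose, none fell and 6 did not pass at day 6 against day 0. The median log2 change was 0.40, and 14.2% of all probe sets rose there. The genes of glutathione synthesis were among those that did not pass: Gclc and Gclm, the subunits of the enzyme that starts it, differed by 0.19 and -0.13 (adjusted p = 0.369 and 0.392 in limma), and Gss, which completes it, by -0.17 (adjusted p = 0.219). Ggct and Chac1, which both act in glutathione breakdown, averaged 382 ± 161 against 179 ± 32.1 and 152 ± 59 against 79.6 ± 40.9 (log2 changes 0.94 and 0.87, adjusted p = 0.005 and 0.0185 in limma). Gpx7, a peroxidase of the endoplasmic reticulum, rose by 0.87 (adjusted p = 0.00317), and Gpx2, the peroxidase of the gut epithelium, averaged 10192 ± 945 at day 6 against 7770 ± 1206 at day 0 and rose by 0.40 (adjusted p = 0.00327). At day 4 against day 0 Ggct and Gpx8 rose (0.78 and 0.67, adjusted p = 0.0278 and 0.00934) and Gclm fell by 0.33 (adjusted p = 0.0319).

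Other Nrf2 targets gave 4 higher and 2 lower of 16 at day 6, with a median log2 change of 0.08. Over all probe sets 29.5% were called there, 14.2% higher and 15.3% lower. Hmox1, the heme oxygenase, averaged 582 ± 279 against 147 ± 10.9 at day 0 and rose by 1.72 (adjusted p = 2.06e-05 in limma). Me1 rose by 0.65 (adjusted p = 0.00132), while Cbr1, a carbonyl reductase, averaged 3861 ± 901 against 6548 ± 304 and fell by 0.79 (adjusted p = 7.5e-06). Nqo1, a common readout of Nrf2, averaged 573 ± 104 at day 6 against 701 ± 136 at day 0 and did not pass (adjusted p = 0.238). At day 4 against day 0, 2 of the 16 rose and 2 fell, where 9.68% of all probe sets rose and 9.06% fell. Ephx1, the epoxide hydrolase, and Abcc1 rose by 0.65 and 0.34 (adjusted p = 0.000702 and 0.00577 in limma). Cbr1 fell by 0.38 on that day (adjusted p = 0.0161 in limma).

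Among 14 kept genes listed as other conjugating enzymes, 2 rose and 3 fell at day 6, with a median of -0.16. Over all probe sets 14.2% rose and 15.3% fell there. The 2 that rose were Alox5ap, which helps leukotriene synthesis and is related to the Mgst proteins, and Nnmt, which methylates nicotinamide (log2 changes 1.76 and 1.36, adjusted p = 2.93e-07 and 3.71e-05 in limma). As3mt, the arsenic methyltransferase, fell by 0.47 (adjusted p = 0.00041). At day 4 Inmt rose by 0.76 and Ethe1, which is a sulfur dioxygenase and transfers no conjugate, fell by 0.36 (adjusted p = 0.0476 and 0.00648).

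Pumps and removing enzymes were mixed. Of 13 kept genes listed with the efflux pumps, 2 rose and 2 fell at day 6, with a median of 0.14, where 14.2% of all probe sets rose and 15.3% fell. The list holds Abc pumps beside Slco and Slc51 carriers and Rala, and the 2 that rose are carrier genes and not Abc pumps. Abcb1a, the drug pump of the gut surface, averaged 7076 ± 1745 at day 6 against 10714 ± 503 at day 0 and fell by 0.64 (adjusted p = 0.000914 in limma), and Abcc3, which exports glucuronides, fell by 0.40 (adjusted p = 0.0311). Slc51b and Slco3a1 rose by 0.61 and 0.59 (adjusted p = 0.0243 and 0.000448). At day 4 against day 0, 2 of the 13 rose and 1 fell, where 9.68% of all probe sets rose and 9.06% fell. Slco2b1 and Abcc1 rose by 0.39 and 0.34 (adjusted p = 0.0496 and 0.00577 in limma). Abcg2, which exports sulfates, fell by 0.49 on that day (adjusted p = 0.00514). Of 12 enzymes that take conjugates apart, 1 rose and 3 fell at day 6, where 14.2% of all probe sets rose and 15.3% fell. Gusb, the lysosomal glucuronidase, rose by 0.61 (adjusted p = 0.000157), whereas Kyat1 and Dpep1, which process glutathione conjugates and peptides, fell by 0.67 and 0.63 (adjusted p = 0.0118 and 0.00425). At day 4 against day 0, 1 of the 12 fell and 0 rose, where 9.06% of all probe sets fell. That gene was Dpep1, with a fall of 0.46 (adjusted p = 0.046 in limma).

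Of 28 kept regulators 4 rose and 9 fell at day 6, with a median of -0.11, where 14.2% of all probe sets rose and 15.3% fell. Foxa2, a forkhead factor of gut and liver, averaged 483 ± 154 at day 6 against 1196 ± 154 at day 0 and fell by 1.32 (adjusted p = 2.3e-06 in limma). Vdr, the vitamin D receptor, fell by 0.76 (adjusted p = 9.87e-06), Hnf4a by 0.35 (adjusted p = 0.00355) and Nfe2l2, the gene of Nrf2, by 0.25 (adjusted p = 0.00641). Cebpb, an inflammatory factor, rose by 1.41 (adjusted p = 3.78e-06). Nr1i2, the xenobiotic receptor PXR, averaged 321 ± 119 against 448 ± 92.4 and did not pass (adjusted p = 0.055), nor did Ahr, the aryl hydrocarbon receptor (adjusted p = 0.214). At day 4 against day 0, 3 of the 28 rose and 3 fell, where 9.68% of all probe sets rose and 9.06% fell. Arnt and Ahrr rose by 0.76 and 0.57, and Mafg fell by 0.49 (adjusted p = 0.004, 0.025 and 0.00479 in limma).

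Markers of cell types moved at the same time. Over all probe sets, 14.2% rose and 15.3% fell at day 6 against day 0, and 9.68% rose and 9.06% fell at day 4. At day 6 against day 0, 8 of 18 general epithelial markers fell and none rose (median log2 change -0.18), as did 6 of 17 markers of absorptive colonocytes (median -0.37) and 4 of 11 of goblet cells (median -0.24). Summed signals of the colonocyte list ran from 97968 to 145962 at day 6, against 147748 to 167985 at day 0, and those of the epithelial list from 170947 to 220209 against 221666 to 239499. All 14 macrophage markers and all 12 fibroblast markers rose (medians 1.24 and 0.62), with summed signals of 26806 to 52738 at day 6 against 12712 to 18123 at day 0 for macrophages and of 74105 to 115222 against 51146 to 63181 for fibroblasts. Of 7 kept neutrophil markers 6 rose (median 2.34), and 6 of 14 squamous markers (median 1.64), 8 of 12 endothelial markers (median 0.74) and 4 of 10 markers of enteric neurons and glia (median 0.42) rose. Already at day 4 against day 0, 3 of the 18 epithelial and 6 of the 17 colonocyte markers fell (medians -0.10 and -0.22). On that day 8 of 12 smooth muscle markers rose (median 0.38), as did 8 of 12 fibroblast (0.45), 10 of 12 endothelial (0.63) and 7 of 10 neuron and glia markers (0.62). The part of these cell types in the members' results was not tested.

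Array by array, the median log2 difference of the 43 members from the day 0 mean lay between -0.45 and -0.25 at day 6, between -0.21 and 0.05 at day 4 and between -0.07 and 0.15 at day 2. The epithelial markers had medians of -0.44 to -0.03 at day 6, and the colonocyte markers of -0.71 to 0.02. In day 6 mouse 1, the array with the high pancreas sum, the members stood at -0.25, the epithelial list at -0.03 and the colonocyte list at 0.02. In day 4 mouse 4 the colonocyte list stood at -0.94 with the members at -0.07. Mouse 21 of day 6 was the lowest of its day in all 3 lists. Liver makes many of these enzymes. Of 13 liver markers 8, Alb among them, were under the filter, and the summed liver signal was 3276 to 5291 at day 6 against 5296 to 8030 at day 0; its part in the members' results was not tested. Summed skeletal muscle markers reached 94635 in mouse 21 of day 6.

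**Figure D5:**
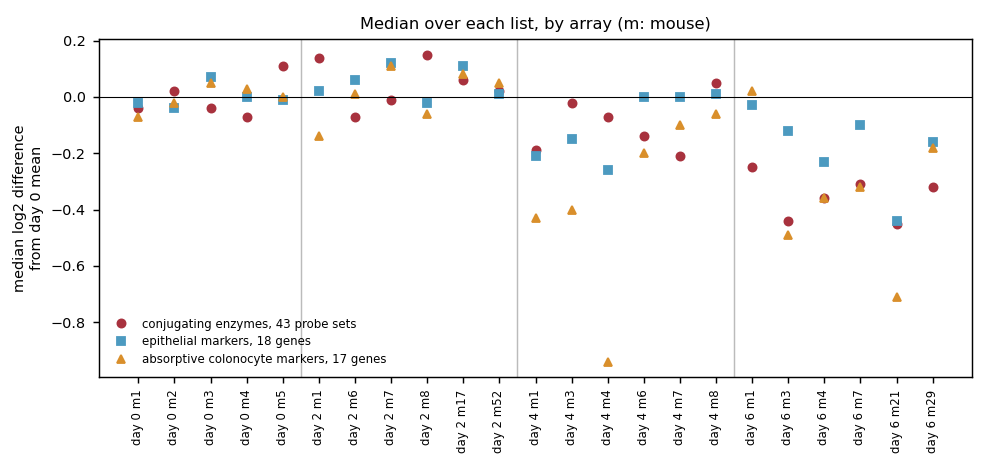
Median log2 difference from the day 0 mean (vertical axis) of the 43 kept members, 18 epithelial markers and 17 absorptive colonocyte markers, for each of 23 arrays (horizontal axis, grouped by day; m is the mouse number). The member points of day 6 lie between -0.45 and -0.25, below those of every other day, while the colonocyte points are lowest in day 4 mouse 4 at -0.94.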

How the data were processed

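Total RNA of 23 mouse colons was labelled and hybridized to Affymetrix whole-genome arrays. The deposited intensity values are linear signals, MAS5 is named in the submitters' processing notes, and the values themselves show that the authors scaled every array to 1 common trimmed mean (2% trimmed). The member rule and the gene and marker lists were chosen with earlier results of these data known. Control probe sets (64) were left out, a probe set was kept when at least 5 arrays lay above the median of their array (54.7% kept), and log2(signal + 16) was fitted with limma 3.58.1 in R 4.3.3 (lmFit, then eBayes with a trend), 1 mean per day, 5 contrasts, Benjamini-Hochberg adjustment over all kept probe sets. The script was tested on simulated data. Platform annotation gave 1 symbol to 34945 probe sets, several to 932 and none to 9160. Every member gene called in any contrast was named, led by its kept probe set with the highest mean. For each pathway list and contrast with day 0, up to 3 called genes were named, by largest change. Where none passed, the 1 with the lowest p was taken. No pathway list held a call at day 2, and Ugp2, Chac1, Ephx1, Gstcd, Slco3a1, Acy3 and Nfe2l1 were taken there. Their adjusted p ran from 0.18 to 0.419 in limma. Abcc3, Ahr, Gclc, Gpx2, Gss, Hnf4a, Nfe2l2, Nqo1, Nr1i2 and Ugdh were named after their values were seen. The lists covered 7 pathways and 15 cell types. Depth does not apply to arrays, and their number limits the precision. No pair of arrays was a duplicate: at most 0.00444% of values were identical. Alternatives were 2 other pseudocounts, no or a stricter filter, quantile or median scaling, 1 value per gene, fits of 2 days, eBayes without a trend, the hybridization controls as a covariate, the mouse number as a block, and leaving out 4 arrays or each array.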

Additional observations from a re-analysis of the deposited data

Results flagged for a closer look

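In 4 of 84 groups of mice tested (21 leading probe sets of called genes, 4 days), 1 array lay far from the others of its day by Dixon's gap test on log2 values. Chance alone would give such a gap in about 1 of 20 groups. Gstm6 was lowest in day 6 mouse 21, at a signal of 71.1, with the other day 6 mice between 169 and 239. Gstm5 was highest in the same mouse, at 2373, with the others between 2024 and 2112. Sult1a1 was lowest in day 4 mouse 7, at 6316, with the others between 8580 and 9829. Sult1d1 was highest in day 4 mouse 8, at 9042, with the others between 6766 and 7425, and that mouse is 1 of the 4 arrays whose markers of neighbouring tissue stood apart. Leaving out any single array did not end the day 6 calls of Gstm5, Gstm6 or Sult1a1 against day 0 in limma, where the highest adjusted p was 0.00594, 8.7e-05 and 0.000181.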

How the results depend on the processing

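Counts of members called (24 at day 6 against day 0, 18 at day 6 against day 4, 12 at day 4 against day 2, 5 at day 4 against day 0, 0 at day 2 against day 0) were recomputed in limma under 13 other settings and without each of 23 arrays. With the hybridization controls as a covariate the counts were 1 at day 6 against day 0, 0 at day 4 against day 0, 0 at day 4 against day 2 and 16 at day 6 against day 4. At day 4 against day 0 the count was 3 with no filter, 3 with median centring, 2 with 1 probe set per gene, 2 with the mean of each gene's probe sets and 8 without the 4 arrays that stand apart. At day 4 against day 2 it was 7 with 1 probe set per gene and 6 with the mean, where 32 genes and not 43 probe sets were tested. Without single arrays the counts ran from 22 to 25 at day 6 against day 0, from 16 to 19 at day 6 against day 4, from 5 (without mouse 4 of day 4) to 14 at day 4 against day 2 with 7 without mouse 7 of day 2, from 0 to 7 at day 4 against day 0, and stayed at 0 at day 2. At day 4 against day 0 the count was 0 without mouse 5 of day 0, 2 without mouse 2 or 3 of day 0 or mouse 1, 3 or 4 of day 4, and 3 without mouse 1 of day 0 or mouse 6 of day 4. The direction of 1 named change turned: Sult1d1 at day 6 against day 0 was 0.05 (adjusted p = 0.924) with the covariate, and -0.45 (adjusted p = 0.0145) without it. The covariate moves with the days, and the cause of the lost calls was not tested. Median centring gave 2457 probe sets higher and 5125 lower at day 6 against day 0, where the deposited scaling gave 3492 and 3774, and 0 members higher and 26 lower. At day 6 against day 4 it gave 1348 and 3353, where the deposited scaling gave 1972 and 2520. With the mouse number as a replicate block (estimated correlation 0.0319) the counts were 24, 18, 12, 5 and 0, as without it. Numbers name different animals, so same-numbered arrays were not treated as pairs. Same-numbered arrays of different days correlated by a median of 0.03 over 17 pairs, 7 of them over 0.1. Of 181 pairs with different numbers 27 were over 0.1, the highest at 0.30. Mouse 8 of day 2 and mouse 8 of day 4, both among the arrays that stand apart, correlated at 0.59. The pseudocount, quantile scaling, the stricter filter, the fit of 2 days and eBayes without a trend left every count within 1.5 times of these. The number of mice and probe sets shared by related genes limit what can be told apart.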

Other observations

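Besides the members, 1 probe set lay outside the rule because its platform symbols name Gm3776 beside Gsta2 and Gsta1. Its signal averaged 1785 ± 487 at day 0 (SD, n = 5), 2762 ± 336 at day 2, 1438 ± 170.2 at day 4 and 1987 ± 680.1 at day 6 (n = 6 each). The day 2 arrays did not overlap with those of day 0. The log2 difference of day 2 and day 0 was 0.66 ± 0.18 (SE, adjusted p = 0.127 in limma), and at day 6 it was 0.13 ± 0.18 (adjusted p = 0.631). At day 4 against day 2 it fell by 0.93 ± 0.18 (adjusted p = 0.00244), with no overlap between the days.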
